A study of Mus musculus with 4 samples.

Results

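Lysosome genes were followed in alveolar epithelial cells of control mice and of mice with Cdc42 deleted in alveolar cells, each with and without pneumonectomy (PNX), the surgical removal of part of the lung. Cdc42 is a small GTPase that organises the actin skeleton. The group holds 39 named genes of the 17117 in the UMI count table: 11 subunits and accessory proteins of the vacuolar ATPase (V-ATPase), 16 hydrolases, 4 activators and other soluble proteins, 6 membrane proteins and 2 regulators. The genes are a list of names, given as lysosome and lamellar body genes. A separate list of 11 genes, called lamellar body genes here, holds no member. It holds Abca3 and Lamp3, but also Slc34a2, a phosphate transporter, and Adgrf5, a receptor. Not every gene on it is therefore a part of the organelle itself.

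The lysosome is the acid compartment in which proteins, lipids and sugars are broken down. The V-ATPase pumps protons into it, soluble hydrolases and their activators do the cutting, and membrane proteins line it and export the products. Alveolar type II (AT2) cells, the surfactant-making cells of the lung, also build lamellar bodies, which are lysosome-related organelles that store surfactant phospholipid and the hydrophobic surfactant proteins until secretion. The transcription factor Tfeb and its relatives switch on many lysosome genes through a short promoter element whose core reads CACGTG.

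All mice carried Sftpc-CreER, a tamoxifen-activated Cre driven by the Sftpc promoter, and the Rosa26-mTmG reporter, which turns GFP on after Cre acts. Control mice were Cdc42flox/+ and so had 1 floxed Cdc42 allele, while Cdc42 AT2 null mice were Cdc42flox/-, so that in each Cre acts on 1 floxed allele, and null mice have no other intact one. Both were given 4 doses of tamoxifen. GFP+ cells were sorted from sham-treated control mice (control sham), control mice at day 21 after PNX (control PNX), sham-treated null mice (null sham) and null mice at day 21 after PNX (null PNX), with an age of postnatal day 80 stated for all 4. Whether mice were that old when operated on or when their lungs were taken is not stated, nor is the number of mice per library. Each group is 1 library, so no difference below has a replicate check, no test was possible, and every interval covers counting error only.

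The libraries held 2111, 2252, 3344 and 2370 cells in the order just given. Alveolar cells were those with at least 2% of their UMIs on Sftpc or at least 1 Cldn4 UMI, and with Ptprc, Pecam1 and Col1a2 at 0, which gave 1669, 1972, 2630 and 1858 cells. Their median depth was 4763, 4826, 5129 and 10595 UMIs, so null PNX cells were the most deeply read. Cldn4, a marker of the transitional state between AT2 and AT1 cells, had a UMI in 0, 3, 69 and 998 of these cells, so the cell states also differ between libraries. In all, 627 cells of the sort, on either side of the limit of the rule, lay between 1% and 3% of UMIs on Sftpc. The 10 AT2 markers summed to 185500.0 CPM in control sham and 176057 after control PNX, against 129103 in null sham and 110667 after null PNX. Sftpc, which the cell rule used, made up most of each sum. It stood at 128230 CPM in control sham and 122766 after control PNX, against 68513 in null sham and 60946 after null PNX. The lower sums of the null libraries therefore went largely with that gene. Sftpb stood at 14684 CPM in control sham and 12757 after control PNX, against 16589.6 in null sham and 16676 after null PNX, while Etv5, a transcription factor of AT2 cells, stood at 406 CPM in control sham and 379 after control PNX, against 405 in null sham and 136 after null PNX. The targeted gene, Cdc42, stood at 184 CPM in control sham and 226 after control PNX, against 265 in null sham and 405 after null PNX, so it was higher in the null libraries. A 3′ tag can lie outside the deleted part, so these values do not check the deletion. Of the other cell types, the 9 macrophage markers summed to 86.4 CPM in control sham and 24.4 after control PNX, against 80.4 in null sham and 125 after null PNX, and Marco, Mrc1 and Adgre1 were each at 1.24 CPM or below, with Adgre1 at 0 in control PNX. Barcode sequences found in more than 1 library numbered 54.

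Levels are CPM, the UMIs of a gene scaled to a total of 1000000 UMIs over the alveolar cells of a library. Because the median gene differed between libraries, a gene was called higher or lower when its log2 ratio passed 1.5-fold after the median of all 7060 genes with a mean of at least 10 CPM had been taken off. That median was 0.14 for control PNX over control sham, 0.17 for null sham over control sham, 0.22 for null PNX over null sham and 0.24 for null PNX over control PNX. Of the 39 members, 34 reached a mean of 10 CPM and were counted. The other 5, Atp6v0c, Lipa, Pla2g15, Tfeb and Hps1, are given by level only.

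Promoter sequences are shown first, because the CACGTG core is the feature that many lysosome genes are known to share. RefSeq windows of 300 bases, 250 before and 50 after the start site in GRCm38.p6, were found for 35 members. CACGTG, which reads the same on both strands, was in the window of 12 of these 35 genes (34.3%), against 12.7% of 5457 measured genes and 8.09% of 27025 genes with a window. The longer form TCACGTG, sought on both strands and overlapping the core, was in 11 of the 35 (31.4%), against 7.90% of measured genes. No test was made of these shares, and a match is a description of letters, not a site of binding.

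The 120 bases before the start site are printed for 5 members, 5′ to 3′ on the gene's own strand, with CACGTG and any flanking T before it or A after it in capitals. Ctsd and Glb1 were the 2 measured hydrolases with the highest null PNX ratios, Lamp1 held the most copies, Atp6v0b held 2 copies and was not higher in null PNX than in null sham, and Lgmn held 1 and passed no limit.
Lamp1: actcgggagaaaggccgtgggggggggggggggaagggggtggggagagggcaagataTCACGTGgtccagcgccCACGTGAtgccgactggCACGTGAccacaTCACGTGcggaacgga
Atp6v0b: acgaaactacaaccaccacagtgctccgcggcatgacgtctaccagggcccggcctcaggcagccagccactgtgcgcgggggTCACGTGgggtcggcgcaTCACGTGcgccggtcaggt
Ctsd: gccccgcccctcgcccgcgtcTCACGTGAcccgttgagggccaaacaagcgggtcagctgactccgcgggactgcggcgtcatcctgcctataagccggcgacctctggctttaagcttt
Glb1: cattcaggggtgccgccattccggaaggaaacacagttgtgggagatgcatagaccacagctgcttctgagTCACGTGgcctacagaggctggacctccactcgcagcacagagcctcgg
Lgmn: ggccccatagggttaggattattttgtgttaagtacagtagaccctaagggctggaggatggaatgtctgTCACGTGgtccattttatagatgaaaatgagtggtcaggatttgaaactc
These stretches lie at chr8:13159041-13159160 on the plus strand for Lamp1, chr4:117887330-117887449 on the minus strand for Atp6v0b, chr7:142387828-142387947 on the minus strand for Ctsd, chr9:114400958-114401077 on the plus strand for Glb1 and chr12:102439093-102439212 on the minus strand for Lgmn. In Lamp1 the 4 copies begin 61, 45, 28 and 15 bases before the start. In Atp6v0b the 2 copies begin 36 and 18 bases before it. Ctsd has a further copy 245 bases before its start, outside the printed stretch. The Lgmn copy lies in 1 of its 2 windows.

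The members were compared first by how many passed the limit. In null PNX over null sham 7 of 34 members were higher and 2 were lower, while 16.1% and 20.1% of all measured genes passed on the high and low side. In null PNX over control PNX 12 were higher and 4 lower, with backgrounds of 20.8% and 21.5%. Null sham over control sham had 0 higher and 2 lower members, with backgrounds of 7.86% and 6.74%. In control PNX over control sham 0 members passed in either direction, where the background was 3.53% higher and 3.12% lower. The members' median centred log2 ratio was 0.41 for null PNX over control PNX and 0.16 for null PNX over null sham. It was 0.10 for null sham over control sham and -0.05 for control PNX over control sham. By construction the median of all measured genes is 0. These 4 comparisons share libraries and are not independent of each other. Without the centring 13 members were higher and 0 lower when null PNX was set against null sham. The counts were then 21 and 1 against control PNX, and 6 and 1 for null sham over control sham, with 27.4% and 12.5%, 32.1% and 13.9%, and 14.5% and 3.95% of all genes.

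**Figure D1:**
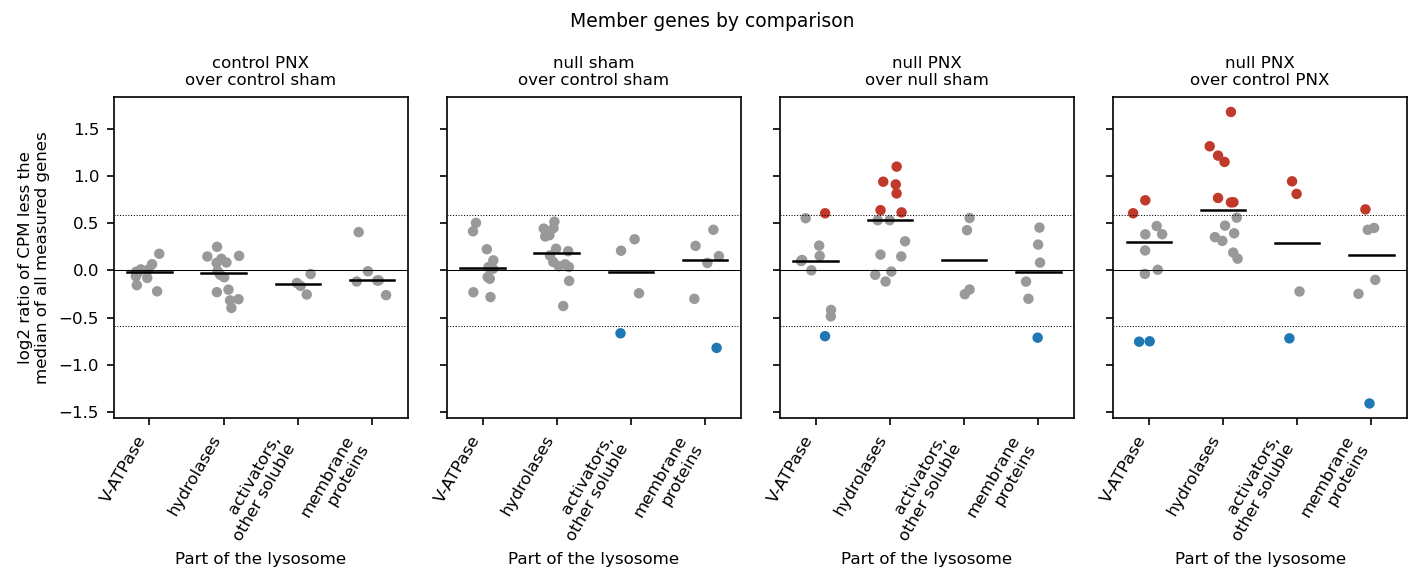
Centred log2 ratio of CPM (vertical axis) of the 34 measured members in each of the 4 comparisons, by part of the lysosome (horizontal axis). Each point is a gene, black bars are medians, dotted lines mark 1.5-fold, and red and blue points are past it. The hydrolases of null PNX over control PNX are all above 0, with a median of 0.64.

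Hydrolases made up most of the members on the high side in null PNX, where 6 of the 7 higher over null sham and 7 of the 12 higher over control PNX were hydrolases. Their 16 genes summed to 1496 CPM (1469.7 to 1523) in control sham and 1643 (1618 to 1668) after control PNX, against 1779 (1757 to 1800.5) in null sham and 2888 (2865 to 2911) after null PNX. The sum was 1.62 (1.6 to 1.65) times as high in null PNX as in null sham and 1.76 (1.73 to 1.79) times as high as in control PNX, while the median gene was 1.17 and 1.18 times as high. Ctsc alone held a large share of this sum, and the 15 other hydrolases together gave 1.59 (1.56 to 1.62) and 1.99 (1.95 to 2.04). None of the 14 measured hydrolases was lower in either comparison, and over control PNX all 14 lay above the median gene. In the controls PNX went with a ratio of 1.1 (1.07 to 1.12) in the sum, close to the 1.10 of the median gene.

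Ctsd encodes cathepsin D, the main aspartic protease of the lysosome. Its level was 103 CPM (96.4 to 110.5) in control sham and 120.2 (113 to 127) after control PNX, against 158 (152 to 165) in null sham and 354 (346 to 362) after null PNX. None of the 4 intervals overlap, null PNX was the highest library, and the ratio was 2.23 (2.13 to 2.34) over null sham and 2.94 (2.77 to 3.13) over control PNX. Null sham already lay above control sham by 1.53 (1.42 to 1.66), which did not pass the limit of 1.69.

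Ctsb, a cysteine protease, had 205 CPM (195 to 215) in control sham and 214 (205 to 223) after control PNX, against 241 (233 to 249) in null sham and 430.4 (422 to 439) after null PNX. The control and sham libraries lay close together, and null PNX was 1.78 (1.72 to 1.86) times null sham, just past the limit of 1.75, which it missed at 2000 UMIs per cell, as a mean over cells, with an Sftpc limit of 5% and with the centring on genes of at least 50 CPM. Ctsa, the carboxypeptidase that also protects beta-galactosidase from degradation, had 31.6 CPM (27.8 to 35.7) in control sham and 33.6 (30.1 to 37.4) after control PNX, against 50.9 (47.3 to 54.7) in null sham and 92.4 (88.3 to 96.6) after null PNX. Its ratio was 1.81 (1.67 to 1.98) over null sham and 2.75 (2.45 to 3.1) over control PNX. Glb1, that beta-galactosidase and the enzyme behind senescence-associated staining, had 7.24 CPM (5.51 to 9.34) in control sham and 6.92 (5.38 to 8.75) after control PNX, against 10.5 (8.93 to 12.3) in null sham and 26.3 (24.2 to 28.6) after null PNX. Its ratio of 3.81 (2.96 to 4.97) over control PNX was the highest of the measured members, on a low level with wide intervals. Glb1 reached the minimum mean of 10 CPM only through null PNX, the library where it was highest. Its rank and its place in the hydrolase counts therefore rest on that library.

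Asah1 and Ppt1 passed in both null PNX comparisons. Asah1, acid ceramidase, stood at 34 CPM in control sham and 41.4 after control PNX, against 39.4 in null sham and 80.8 after null PNX, with a ratio of 2.05 (1.86 to 2.26) over null sham. Ppt1, the thioesterase that takes palmitate off proteins, stood at 13.9 CPM in control sham and 18.1 after control PNX, against 16.2 in null sham and 35.5 after null PNX, with a ratio of 2.19 (1.89 to 2.55). Over control PNX the ratios were 1.95 (1.75 to 2.18) and 1.96 (1.66 to 2.31). For both, null PNX lay apart from the 3 other libraries, which lay close together. Without the Cldn4-positive cells Asah1 no longer passed over null sham or control PNX.

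Ctsl, a cysteine protease, passed only against control PNX. It stood at 52.5 CPM in control sham and 43.8 after control PNX, against 68.3 in null sham and 115 after null PNX, a ratio of 2.63 (2.37 to 2.92) over control PNX and 1.68 (1.56 to 1.82) over null sham, where 1.75 was needed. In null PNX a single cell held 8.35% of its UMIs. Ctsc, the dipeptidyl peptidase that activates granule proteases, was the hydrolase with the most UMIs. It stood at 619 CPM in control sham and 740.2 after control PNX, against 646 in null sham and 1088 after null PNX, and its ratio of 1.68 (1.64 to 1.73) over null sham stayed under the limit, which it passed when Cldn4-positive cells were left out.

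The 6 remaining measured hydrolases, which passed in no comparison, had lower ratios. Null PNX over null sham gave 1.29 (1.24 to 1.35) for Ctsz, 1.44 (1.25 to 1.67) for Gusb, 1.31 (1.17 to 1.47) for Gaa and 1.16 (1.07 to 1.25) for Hexa, around or above the 1.17 of the median gene. Tpp1, a peptidase, and Lgmn, the asparagine endopeptidase that matures cathepsins, gave 1.13 (1.06 to 1.2) and 1.07 (1.0 to 1.15). Lgmn was at 57.6 CPM in control sham and 62.9 after control PNX, against 88.6 in null sham and 95.1 after null PNX, so its step lay between the genotypes rather than between null sham and null PNX. Lipa, the acid lipase, was at 0.491 CPM in control sham and 0.100 after control PNX, against 0.619 in null sham and 1.53 after null PNX, or 4, 1, 9 and 32 UMIs. A single cell held 15.6% of its null PNX UMIs. In the macrophage-marker cells defined below Lipa was at 66.5 CPM over all libraries, against 0.859 in alveolar cells. The part of macrophage RNA in its levels was not tested. Pla2g15, the lysosomal phospholipase that also degrades surfactant lipid, was at 2.82 CPM in control sham and 3.51 after control PNX, against 3.65 in null sham and 5.4 after null PNX.

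**Figure D2:**
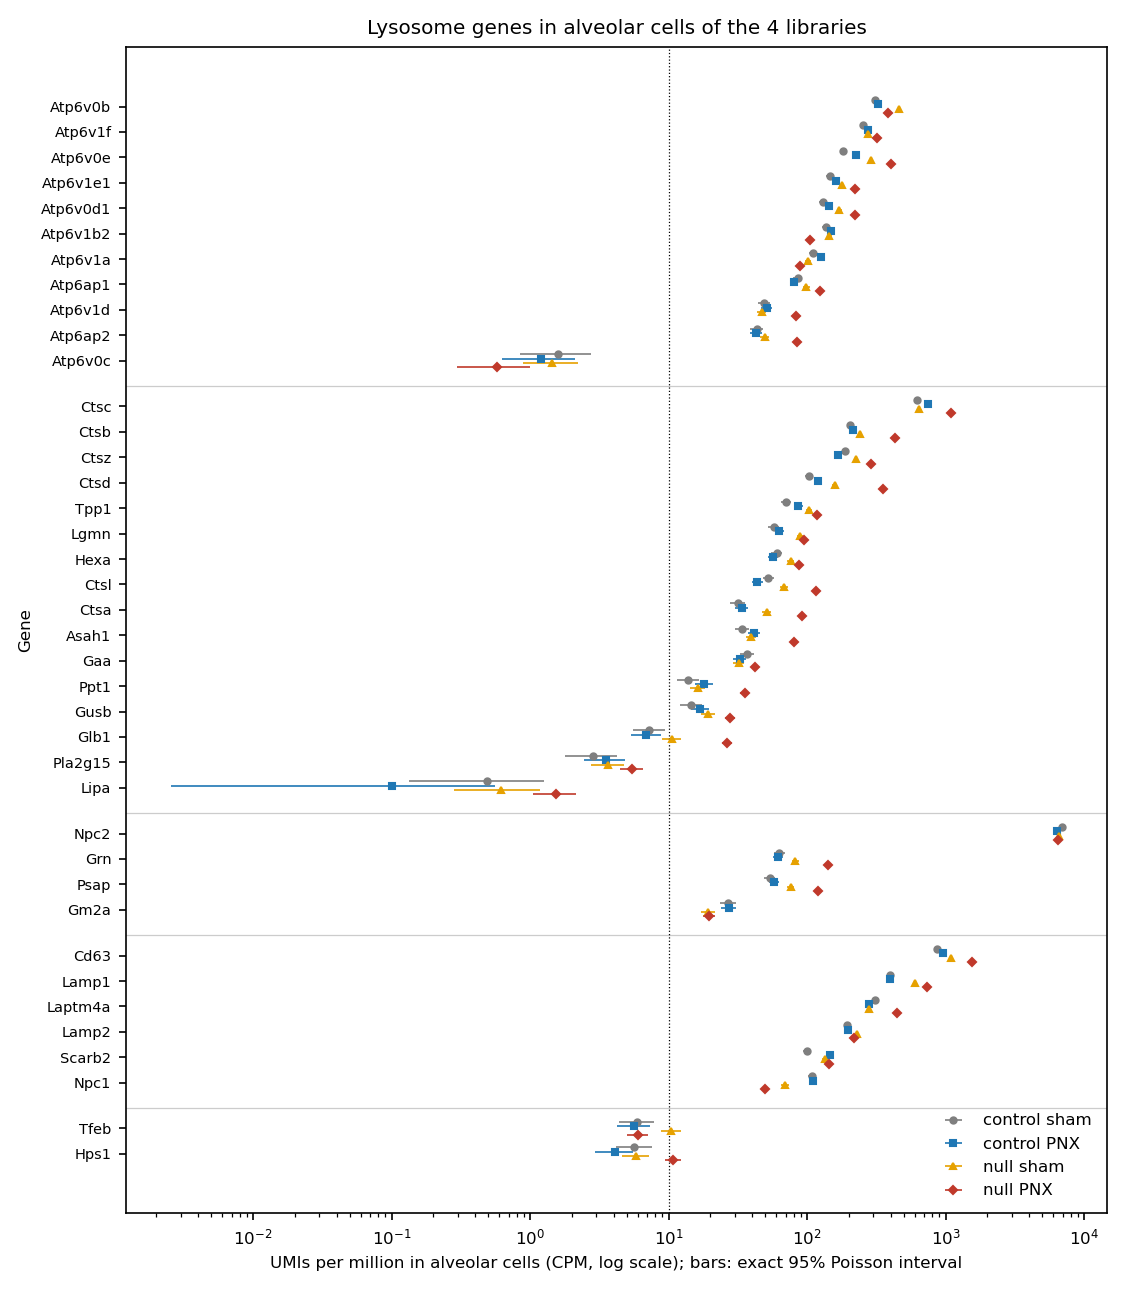
Level of all 39 members in CPM (horizontal axis, log scale) in the 4 libraries, with exact 95% Poisson intervals. The dotted line marks 10 CPM, below which a mean level was not counted. Null PNX lies to the right of the other libraries for most hydrolases, for example Ctsd at 354 and Ctsb at 430.4.

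The difference between the PNX ratio of null and of control mice was also taken gene by gene, as the ratio of the 2 ratios. It was 2.62 (1.77 to 3.87) for Glb1, 2.02 (1.74 to 2.35) for Ctsl, 1.92 (1.74 to 2.12) for Ctsd, 1.71 (1.58 to 1.84) for Ctsb and 1.7 (1.42 to 2.05) for Ctsa. Members of other parts lay as high as Ctsb and Ctsa. Grn had 1.75 (1.53 to 2.0), Laptm4a 1.74 (1.63 to 1.86), Atp6ap2 1.73 (1.47 to 2.05) and Atp6v1d 1.71 (1.46 to 2.0). High values were therefore not particular to hydrolases. Tpp1 and Lgmn had 0.923 (0.816 to 1.04) and 0.983 (0.855 to 1.13), intervals that include 1. Below 1 were Atp6v1b2 at 0.661 (0.599 to 0.730), Npc1 at 0.698 (0.616 to 0.790), Scarb2 at 0.738 (0.666 to 0.818), Atp6v1a at 0.758 (0.680 to 0.846) and Atp6v0b at 0.791 (0.744 to 0.841). This quantity has no replicate check either, since each of its 4 terms is 1 library.

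Activators of the hydrolases and other soluble proteins differed in direction. Psap, the precursor of the saposins that present lipids to hydrolases, stood at 53.8 CPM (48.9 to 59.1) in control sham and 57.5 (52.9 to 62.4) after control PNX, against 76.3 (71.8 to 80.9) in null sham and 119 (115 to 124) after null PNX. Grn, progranulin, stood at 63 CPM (57.6 to 68.7) in control sham and 61.7 (57 to 66.8) after control PNX, against 82.1 (77.5 to 86.9) in null sham and 141 (136 to 146) after null PNX. Both were higher in null PNX over control PNX, by 2.08 (1.9 to 2.28) and 2.28 (2.09 to 2.49), and neither passed over null sham at 1.57 (1.46 to 1.68) and 1.71 (1.6 to 1.83). Gm2a, the activator of beta-hexosaminidase, went the other way between genotypes. It stood at 27 CPM in control sham and 27.1 after control PNX, against 19.2 in null sham and 19.5 after null PNX, a ratio of 0.711 (0.594 to 0.852) for null sham over control sham and 0.719 (0.615 to 0.842) for null PNX over control PNX, and neither ratio passed without the centring. The ratio for null sham over control sham also did not pass without cells holding a macrophage-marker UMI or at 2000 UMIs per cell. Npc2, the soluble cholesterol carrier, held most of the UMIs of this part and stood at 6907 CPM in control sham and 6355 after control PNX, against 6585 in null sham and 6443 after null PNX, a range of less than 10% over the 4 libraries. In the macrophage-marker cells defined below, levels relative to alveolar cells were 32.1 times for Psap, 27.8 for Gm2a, 3.53 for Grn and 0.204 for Npc2. The part of macrophage RNA in the ratios of these genes was not tested.

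The lowest ratio of the measured members belonged to a membrane protein. Npc1, the membrane partner of Npc2 that exports cholesterol from the lysosome, was at 109 CPM (102 to 116) in control sham and 111 (104 to 117) after control PNX, against 69.4 (65.2 to 73.8) in null sham and 49.3 (46.4 to 52.4) after null PNX. The control libraries were alike, null sham was 0.639 (0.583 to 0.700) times control sham, null PNX was 0.711 (0.651 to 0.776) times null sham, and null PNX was 0.446 (0.409 to 0.485) times control PNX, all past the limit on the low side. The ratio to null sham no longer passed without the centring, without Cldn4-positive cells, at 2000 UMIs per cell or as a mean over cells. Lamp1, the most used marker of lysosomal membrane, was at 394 CPM (380.1 to 407) in control sham and 398 (386 to 411) after control PNX, against 598 (586 to 611) in null sham and 738 (726 to 749.6) after null PNX. It was higher in null PNX over control PNX at 1.85 (1.79 to 1.92), and most of that step was already there in null sham, at 1.52 (1.46 to 1.58) over control sham. Lamp2, its relative with a role in chaperone-mediated autophagy, was at 193 CPM in control sham and 197 after control PNX, against 230.0 in null sham and 218 after null PNX, and none of its 4 ratios passed.

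Cd63, a tetraspanin of late endosomes, was at 872 CPM in control sham and 951 after control PNX, against 1092 in null sham and 1538 after null PNX, a ratio of 1.41 (1.38 to 1.44) over null sham that did not pass. Laptm4a, a late endosomal membrane protein, was at 307 CPM in control sham and 281 after control PNX, against 281 in null sham and 448 after null PNX, and its ratio of 1.6 (1.54 to 1.66) did not pass either. Scarb2, the receptor that carries glucocerebrosidase to lysosomes, was lowest in control sham. Its levels were 99.7 CPM in control sham and 145 after control PNX, against 135 in null sham and 145 after null PNX, so that control PNX over control sham gave 1.45 (1.33 to 1.59), the highest of the 34 members in that comparison and below the 1.65 needed.

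V-ATPase subunits were mixed in direction, and in null PNX over null sham their sum differed little from the median gene. The 11 genes summed to 1444 CPM in control sham and 1579 after control PNX, against 1816 in null sham and 2036 after null PNX, with a ratio of 1.12 (1.1 to 1.14) for null PNX over null sham. The median gene gave 1.17 there. Between genotypes the sum gave 1.26 (1.23 to 1.29) for null sham over control sham, where the median gene gave 1.13. For null PNX over control PNX it gave 1.29 (1.27 to 1.31), where the median gene gave 1.18. Over null sham, 1 of 10 measured subunits was higher in null PNX and 1 lower, beside 16.1% and 20.1% of all genes. Over control PNX, 2 were higher and 2 lower, beside 20.8% and 21.5%. These counts were no more than those shares.

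Both subunits on the low side belong to the catalytic ring. Atp6v1a, the catalytic subunit, stood at 109.8 CPM in control sham and 126 after control PNX, against 102 in null sham and 88.7 after null PNX, a ratio of 0.703 (0.654 to 0.756) over control PNX. Its partner in the cytosolic ring, Atp6v1b2, stood at 136 CPM in control sham and 148 after control PNX, against 145 in null sham and 104 after null PNX, with 0.701 (0.656 to 0.750) over control PNX and 0.719 (0.677 to 0.764) over null sham. Null PNX was the lowest library for both genes, and neither passed without the centring or without Cldn4-positive cells.

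The 3 subunits that passed on the high side belong to the stalk, the membrane sector and the accessory proteins. Atp6v1d, of the central stalk, stood at 49 CPM in control sham and 50.9 after control PNX, against 47.1 in null sham and 83.5 after null PNX, with 1.77 (1.62 to 1.94) over null sham, which did not pass without Cldn4-positive cells. Atp6v0e, of the membrane sector, stood at 181 CPM in control sham and 225 after control PNX, against 289 in null sham and 405 after null PNX, and passed narrowly over control PNX at 1.8 (1.72 to 1.89), where 1.77 was needed, a call lost without Cldn4-positive cells, with no CPM minimum, with a minimum of 50 CPM, with an Sftpc limit of 5%, as a mean over cells and at 2000 UMIs per cell. Atp6ap2, an accessory subunit also known as the prorenin receptor, stood at 43.2 CPM in control sham and 42.6 after control PNX, against 49.3 in null sham and 84.4 after null PNX, with 1.98 (1.78 to 2.21) over control PNX and 1.71 (1.57 to 1.87) over null sham, just under the limit. Atp6v0b, of the proton-carrying ring, was instead highest in null sham, at 307 CPM in control sham and 323 after control PNX, against 461 in null sham and 384 after null PNX.

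The other measured subunits, Atp6v0d1, Atp6v1e1, Atp6v1f and Atp6ap1, gave 1.3 (1.23 to 1.36), 1.25 (1.19 to 1.31), 1.17 (1.12 to 1.21) and 1.26 (1.18 to 1.34) for null PNX over null sham and passed in no comparison. Atp6v0c, the other ring subunit, was listed at 1.6 CPM in control sham and 1.2 after control PNX, against 1.45 in null sham and 0.574 after null PNX. It has annotated pseudogenes, so reads may be split between copies and its level is uncertain.

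Both regulators were too low to be counted. Tfeb, the transcription factor that drives lysosome genes, stood at 5.89 CPM in control sham and 5.61 after control PNX, against 10.5 in null sham and 5.98 after null PNX. Null sham was the highest library, and null PNX was 0.571 (0.447 to 0.729) times it. Hps1, whose loss enlarges lamellar bodies in Hermansky-Pudlak syndrome, stood at 5.65 CPM in control sham and 4.11 after control PNX, against 5.78 in null sham and 10.8 after null PNX, with 1.87 (1.45 to 2.43) for null PNX over null sham.

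The lamellar body genes, listed apart from the members, were mostly lower in null PNX. The 8 genes of the list other than the surfactant proteins summed to 8078 CPM (8017 to 8140.2) in control sham and 8564 (8506 to 8621) after control PNX, against 8641 (8593 to 8689) in null sham and 5170.0 (5139 to 5201) after null PNX, a ratio of 0.598 (0.593 to 0.603) for null PNX over null sham. The null PNX sum includes 424 cells under 2% Sftpc that entered through Cldn4. Slc34a2, given below, held a large share of the sum, so the ratio leans on that gene. The sum without Slc34a2 was not taken. Of the 10 measured genes of the list 6 were lower and 0 higher in that comparison, with a median centred log2 ratio of -0.87, and 6 were lower and 1 higher in null PNX over control PNX. Of all measured genes 20.1% were lower and 16.1% higher over null sham, and 21.5% and 20.8% over control PNX. Slc34a2, the phosphate transporter of AT2 cells, was at 3976 CPM in control sham and 4348 after control PNX, against 4191 in null sham and 1497 after null PNX, with 0.357 (0.352 to 0.362) over null sham. Adgrf5, a receptor that limits the surfactant pool, and Lpcat1, which makes surfactant phosphatidylcholine, gave 0.491 (0.464 to 0.519) and 0.535 (0.522 to 0.549). Rab3d, a secretory granule Rab, was the 1 gene on the high side, at 2.15 (1.87 to 2.47) over control PNX. Sftpc, which the cell rule itself used, gave 0.534 (0.533 to 0.536) for null sham over control sham.

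Within null PNX the 998 Cldn4-positive alveolar cells were set against the 860 Cldn4-negative ones, a comparison inside 1 library in which cells are not replicates. The cell rule treats them unequally, since every Cldn4-negative cell has at least 2% of its UMIs on Sftpc while 424 of the 998 positive ones do not, so the comparison was repeated with the 574 positive cells that do. The median depth was 11812.5 UMIs in the 998 cells and 9628.5 in the 860. Of the 34 members 0 were higher and 1 was lower in Cldn4-positive cells, where 5.81% of genes passed on the high side and 7.59% on the low side. Npc2 was the lower one, with 5403 CPM in Cldn4-positive and 7945 in Cldn4-negative cells, a ratio of 0.680 (0.673 to 0.687). The hydrolases nearest the limit of 1.61 were Ctsl, with 136 CPM in Cldn4-positive and 84.8 in Cldn4-negative cells, a ratio of 1.6 (1.47 to 1.75), and Asah1, with 1.52 (1.37 to 1.68). Ctsd had 403 CPM in Cldn4-positive and 282 in Cldn4-negative cells, a ratio of 1.43 (1.36 to 1.5). Ctsc and Hexa lay on the other side, at 0.834 (0.812 to 0.856) and 0.789 (0.719 to 0.866). At 2000 UMIs per cell 0 members were higher and 4 lower, the added 3 being Atp6v1a, Gaa and Npc1, with 9.09% and 10.8% of all genes. With at least 2% Sftpc in both classes 0 members were higher and 0 lower, where 2.29% and 3.26% of genes passed. Npc2 then gave 0.875 (0.865 to 0.885), Ctsl 1.1 (0.987 to 1.22), Asah1 1.35 (1.2 to 1.52) and Ctsd 1.13 (1.06 to 1.19). The same split in null sham had 69 positive and 2561 negative cells. All its cells gave 0.758 (0.730 to 0.787) for Npc2, 1.01 (0.716 to 1.4) for Ctsl and 1.08 (0.689 to 1.63) for Asah1. Ctsd lay below 1 there, unlike in null PNX, at 0.812 (0.634 to 1.02). With at least 2% Sftpc in both classes of null sham Ctsd gave 0.746 (0.547 to 0.996).

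Within null PNX the lamellar body list depended on the Sftpc limit. Of its 10 measured genes 8 were lower and 0 higher in all Cldn4-positive cells, and 2 were lower and 0 higher with at least 2% Sftpc in both classes. The shares of all genes that were lower were 7.59% and 3.26%. The lamellar body genes that passed both ways were Abca3, the transporter that loads phospholipid into lamellar bodies, and Slc34a2. Abca3 had 199 CPM in Cldn4-positive and 412 in Cldn4-negative cells, a ratio of 0.482 (0.458 to 0.508), and 0.642 (0.608 to 0.678) with the same Sftpc limit in both. Slc34a2 had 968 CPM in Cldn4-positive and 2260.1 in Cldn4-negative cells, a ratio of 0.428 (0.418 to 0.438), and 0.623 (0.609 to 0.638) with that limit. Lpcat1 had 0.526 (0.506 to 0.546) and then 0.735 (0.706 to 0.764), which did not pass.

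**Figure D3:**
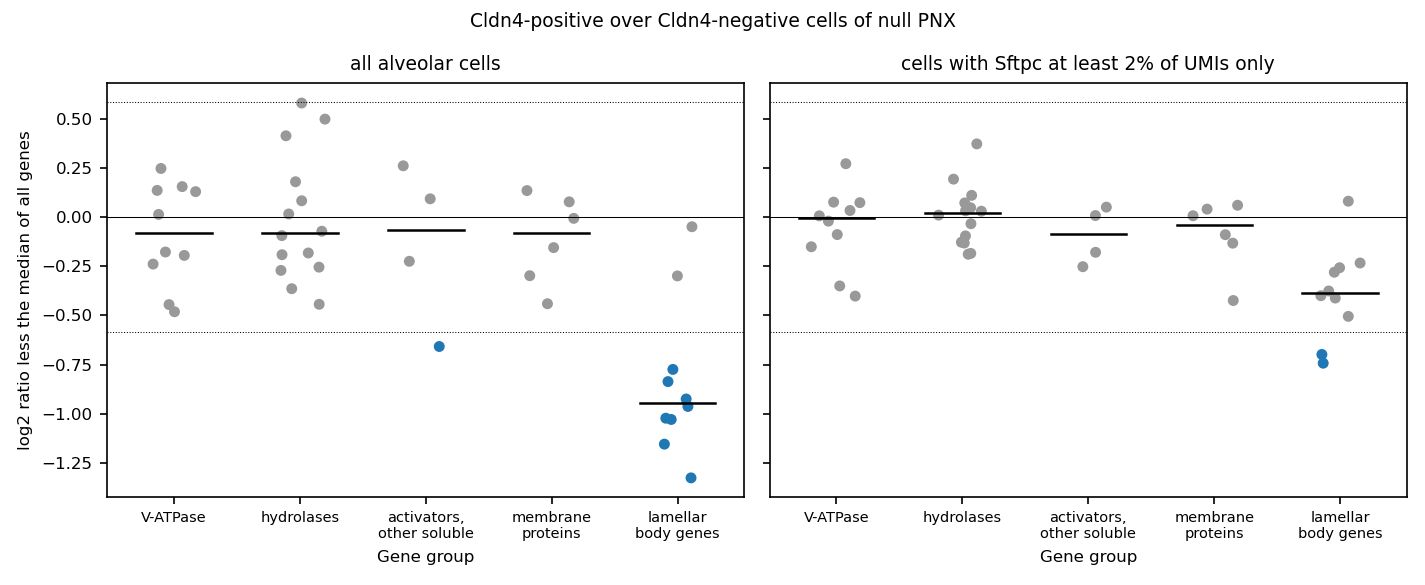
Centred log2 ratio (vertical axis) of Cldn4-positive over Cldn4-negative alveolar cells of null PNX, for the measured members by part and for the lamellar body list (horizontal axis). Each point is a gene, bars are medians, and dotted lines mark 1.5-fold. The left panel holds all alveolar cells, where lamellar body genes have a median of -0.94. The right panel holds cells with at least 2% Sftpc only, where it is -0.39 and no member passes.

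Shares of each cell's UMIs were also taken, so that single cells of high depth do not set the level. The median cell gave 14.1 hydrolase UMIs per 10000 in control sham and 15.6 after control PNX, against 17.1 in null sham and 26.6 after null PNX. Inside null PNX the median was 27.0 in Cldn4-negative and 26.1 in Cldn4-positive cells, with quartiles of 20.5 to 33.8 and 19.8 to 34.1. In the Cldn4-positive cells with at least 2% Sftpc it was 29.1. Lamellar body genes without the surfactant proteins had a median of 71.3 per 10000 in Cldn4-negative and 28.9 in Cldn4-positive cells, and 52.8 in those positive cells with at least 2% Sftpc, so part of the gap goes with the cell rule. Among Cldn4-negative cells alone this median was 93.0 in null sham and 71.3 in null PNX. These lamellar body medians lean on Slc34a2 as the sum does, and were not taken without it. After every cell had been thinned to 2000 UMIs, the mean hydrolase count per cell was 3.03 in control sham and 3.23 after control PNX, against 3.51 in null sham and 5.56 after null PNX. The thinning left out 113, 101, 139 and 0 shallower cells.

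**Figure D4:**
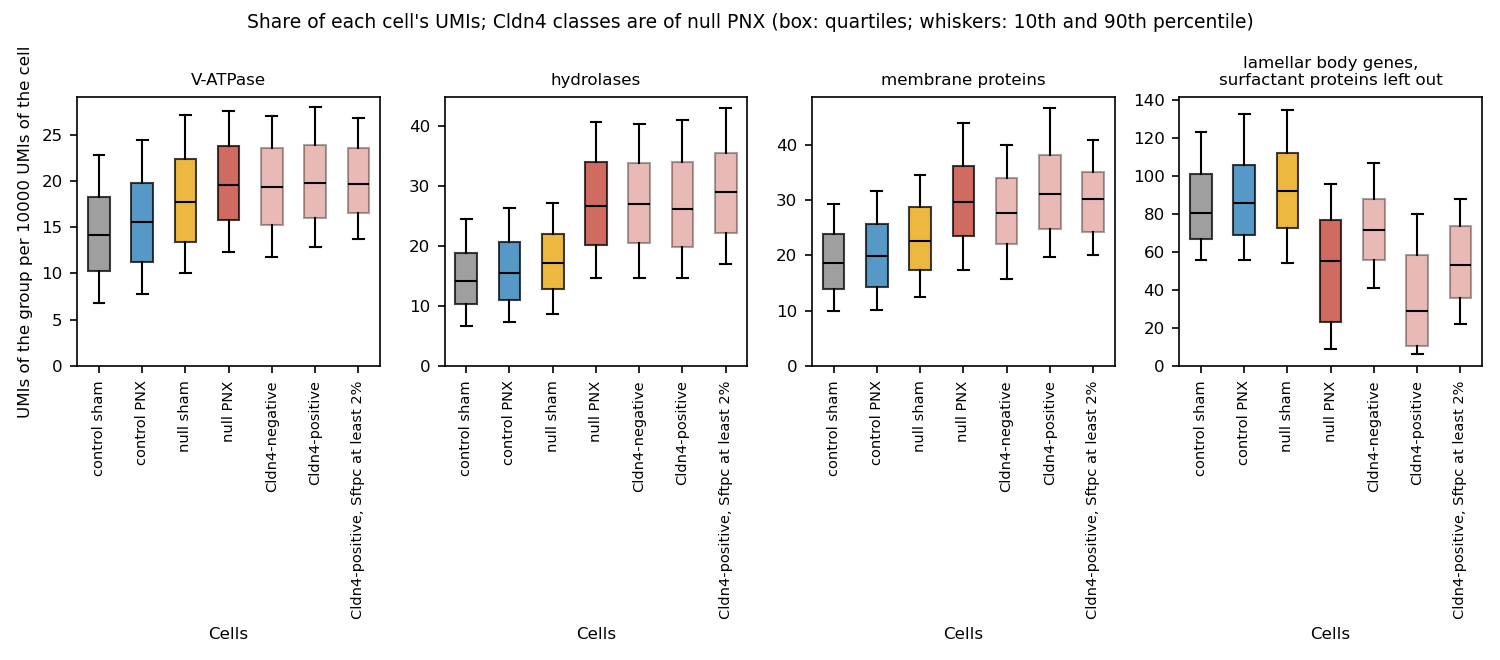
UMIs of each gene group per 10000 UMIs of the cell (vertical axis) in alveolar cells of the 4 libraries and of the Cldn4 classes of null PNX (horizontal axis). Boxes are quartiles with the median, and whiskers run from the 10th to the 90th percentile of cells. Hydrolase medians of the null PNX classes are 27.0, 26.1 and, for Cldn4-positive cells with at least 2% Sftpc, 29.1, and lamellar body medians are 71.3, 28.9 and 52.8.

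Macrophages are rich in lysosomes, and cells with macrophage markers, also in the sort, gave a point of reference. Outside the alveolar cells, and below 2% Sftpc, cells with at least 3 macrophage-marker UMIs and no lymphocyte-marker UMI numbered 128, 90, 164 and 144. The markers include Tyrobp, Fcer1g and Laptm5, which are not limited to macrophages, so other myeloid cells may be in this class. Whether its mix of cells differs between libraries was not tested. Cells with at least 2 lymphocyte-marker UMIs and none of Marco, Mrc1, Adgre1, C1qa, C1qb and C1qc numbered 136, 77, 204 and 111. In the macrophage-marker cells the hydrolases summed to 3456 CPM in null sham and 6902 in null PNX, a ratio of 2.0 (1.91 to 2.09), where the median gene gave 1.04. In the controls the same sum gave 0.775 (0.720 to 0.835) for control PNX over control sham, with 0.935 for the median gene. In the lymphocyte-marker cells they summed to 941 CPM in null sham and 1308 in null PNX, a ratio of 1.39 (1.24 to 1.56), where the median gene gave 1.24. The summed hydrolases were therefore higher in null PNX than in null sham in the macrophage-marker cells as well, and in the lymphocyte-marker cells by little more than the median gene.

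Single genes were also compared across these cell classes. Ctsd gave 2.94 (2.66 to 3.26) in macrophage-marker and 1.24 (0.994 to 1.54) in lymphocyte-marker cells, beside 2.23 in alveolar cells. Npc1, lower in null PNX alveolar cells, gave 1.94 (1.03 to 3.85) in macrophage-marker cells, on 33 and 15 UMIs. Membrane proteins summed gave 1.94 (1.8 to 2.09) and 1.5 (1.28 to 1.76), with Cd63 at 3.94 (3.41 to 4.58) in macrophage-marker cells. Sftpc stood at 8948 CPM in control sham and 5009 after control PNX, against 5251 in null sham and 5482 after null PNX in macrophage-marker cells. What part alveolar RNA in these cells played in the ratios was not tested.

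**Figure D5:**
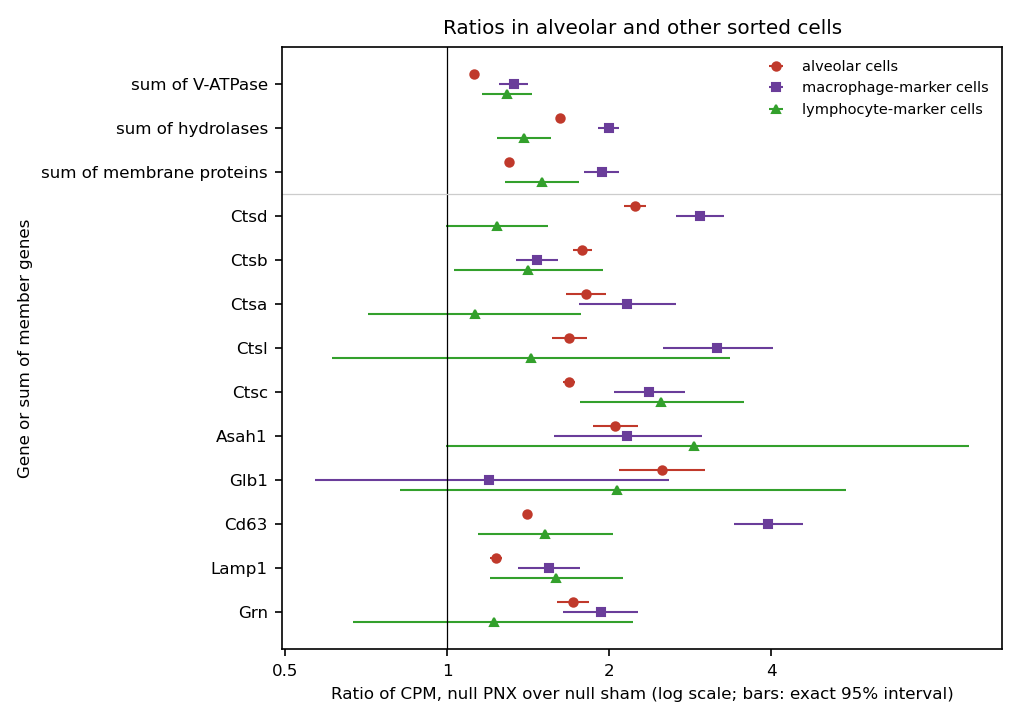
Ratio of CPM, null PNX over null sham (horizontal axis, log scale), in alveolar, macrophage-marker and lymphocyte-marker cells for 3 summed parts and 10 member genes (vertical axis). Bars are exact 95% intervals for counting error. The summed hydrolases lie above 1 in all 3 classes, at 1.62 in alveolar, 2.00 in macrophage-marker and 1.39 in lymphocyte-marker cells.

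RNA of macrophages inside the alveolar cells was looked at in the same way. A macrophage-marker UMI occurred in 27.3% of alveolar cells of control sham and 8.87% of control PNX, against 27.2% of null sham and 52.7% of null PNX, at the depths given above. C1qa stood at 9.45 CPM in control sham and 0.301 after control PNX, against 5.09 in null sham and 16.7 after null PNX. Without the cells that held such a UMI, 6 of the 7 members higher in null PNX over null sham remained higher, all 6 hydrolases among them, and Atp6v1d was lost. Over control PNX 11 of the 12 remained, and Lamp1 was lost. Of all genes 14.8% were then higher over null sham and 19.6% over control PNX.

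The rest of the lysosomal pathway was taken from lists of 139 other genes, of which 100 were measured. Among 20 other hydrolases 6 were higher and 3 lower in null PNX over null sham beside 6 and 0 of the 14 members, a difference that was not tested. Of all measured genes 16.1% were higher and 20.1% lower. Naglu and Aga, which degrade heparan sulfate and glycoproteins, gave 2.86 (2.3 to 3.58) and 2.5 (2.03 to 3.09). Ids, which degrades heparan and dermatan sulfate, was among the lower ones, at 0.599 (0.526 to 0.682). Ctss, at 9.21 CPM in control sham and 2.0 after control PNX, against 6.61 in null sham and 42.9 after null PNX, had the highest ratio of this list, 6.49 (5.25 to 8.1). Its mean reached 10 CPM only through null PNX. Ctss was 87.1 times as high in macrophage-marker cells as in alveolar cells, and its levels followed the order of C1qa across the libraries. The part of macrophage RNA in the Ctss ratio was not tested.

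Regulators of the pathway had more genes on the low than on the high side. Of 9 measured genes of the Tfeb family and of mTORC1 signalling, the kinase complex on the lysosome that holds Tfeb in the cytosol, 5 were lower and 1 was higher in null PNX over null sham, beside 20.1% and 16.1% of all genes. Rragd, a Rag GTPase that recruits that complex, was at 14 CPM in control sham and 17.7 after control PNX, against 29.7 in null sham and 12.5 after null PNX, with 0.422 (0.361 to 0.494). It was higher in null sham over control sham, by 2.12 (1.72 to 2.63). Flcn, folliculin, and Mitf, a relative of Tfeb, gave 0.443 (0.387 to 0.506) and 0.472 (0.387 to 0.575), and Rraga gave 1.78 (1.62 to 1.95).

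Genes that deliver hydrolases to the lysosome were counted too. Of 6 measured sorting genes 3 were lower and 0 higher in null PNX over null sham, beside 20.1% and 16.1% of all genes. Cln6, an export factor for hydrolases in the endoplasmic reticulum, was at 47.8 CPM in control sham and 33.5 after control PNX, against 37.8 in null sham and 14.1 after null PNX, with 0.372 (0.322 to 0.429). Sort1, sortilin, was at 83.1 CPM in control sham and 108 after control PNX, against 108 in null sham and 51.2 after null PNX, with 0.473 (0.437 to 0.512). Gnptab, which makes the mannose phosphate tag, gave 0.745 (0.665 to 0.835).

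Among the remaining lists, 15 measured genes of lysosome-related organelle trafficking had 4 higher and 2 lower in null PNX over null sham, where 16.1% and 20.1% of all genes passed. Rab38, a Rab of lamellar bodies and melanosomes, gave 2.02 (1.79 to 2.29), and Bloc1s1 gave 0.421 (0.388 to 0.457). Of 16 other lysosomal membrane proteins 0 were higher and 1 was lower, Laptm4b at 0.706 (0.653 to 0.763). Of 8 other V-ATPase subunits Atp6v1g3 was higher at 3.42 (2.84 to 4.14) and Atp6v0a1 lower at 0.660 (0.610 to 0.713). Among 16 autophagy genes 1 was higher and 1 lower in null PNX over null sham. In null sham over control sham 2 were higher and 0 lower, beside 7.86% and 6.74% of all genes. Those 2 were Sqstm1, the receptor p62, at 1.87 (1.72 to 2.02), and Wipi1, at 1.81 (1.3 to 2.54). Sqstm1 was at 96.7 CPM in control sham and 84.8 after control PNX, against 181 in null sham and 216 after null PNX.

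The CACGTG core was then set beside the calls. In null PNX over control PNX 6 of the 10 higher members with a promoter window held it, against 4 of the 18 that passed in neither direction and 1 of the 2 lower ones. The 6 were Atp6v0e, Ctsa, Ctsd, Ctsl, Glb1 and Lamp1. Lgmn and Atp6v0b, both printed above, held it without passing, and Atp6v1a held it and was lower. Psap, Grn, Ppt1 and Atp6ap2 were higher with no match in the window. In null PNX over null sham 3 of the 5 higher members with a window held the core, against 8 of the 25 that passed in neither direction. Glb1, counted as higher in both comparisons, reached the minimum mean of 10 CPM only through null PNX. Of the lamellar body list 0 of 8 genes with a window held the core. It was in 12.7% of measured genes with a window, and its share among all genes called higher or lower was not taken.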

How the data were processed

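The deposited table holds raw UMI counts per gene and cell, which the authors did not normalize, as its whole-number values show. The submitters' processing notes name the build mm10 and the tools Seurat 2.3.4 and Cell Ranger 2.1.0, with no role, and libraries followed a 10x Genomics 3′ protocol, per the labels. Cells were assigned to libraries by barcode ending, as the labels give it, and 0 were left without one. Each gene occurs in at least 3 cells, so rarer genes are not in the table. How doublets were treated is not given in these sources, and no doublet caller was run.

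Counts were summed over the alveolar cells of a library, 8145379 and 9977520 UMIs for control sham and control PNX, 14528959 and 20914459 for the null sham and null PNX libraries, and divided by these totals (CPM). A count of 3 then equals 0.368, 0.301, 0.206 and 0.143 CPM in the same order. Levels have exact 95% Poisson intervals and ratios have exact 95% binomial (Clopper-Pearson) intervals, and both cover counting error only. Log2 ratios had 0.5 counts added and were centred on the median of 7060 genes with a mean of at least 10 CPM. Ratios of PNX ratios have intervals on the log scale from the counts. Tools were Python 3.11.15, numpy 2.4.6, scipy 1.17.1, pandas 2.3.3 and matplotlib 3.10.9, with R 4.3.3 and edgeR 4.0.16 for 1 alternative scaling, and the call rule was tested on simulated data. Promoter windows are from RefSeq, build GRCm38.p6.

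The members and lists were chosen with earlier results of these data known. Any member may be named, and of the other lists at most the 3 highest and 3 lowest genes past 1.5-fold per comparison, at a mean of at least 10 CPM, are. Values of some genes of these lists are not reported here.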

Additional observations from a re-analysis of the deposited data

How the results depend on the processing

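Of 1360 member values under alternatives 1134 stayed within the counting interval and 226 moved beyond it. A change of sign was looked for only where a member had been called in the main setting, and 0 of those reversed. Changes of sign in uncalled members were not counted. Leaving out the centring on the median gene changed the counts most: null PNX over null sham had 13 members higher and 0 lower (27.4% and 12.5% of genes), null sham over control sham 6 and 1 (14.5% and 3.95%), and null PNX over control PNX 21 and 1 (32.1% and 13.9%), so the calls of Atp6v1a, Atp6v1b2 and Gm2a as lower were not made on plain CPM. edgeR TMM library sizes, with no centring, gave the counts reported for all 4 comparisons and kept these calls. With no CPM minimum, 1 of 39 members was lower in control PNX over control sham, 4 were lower in null PNX over null sham and 1 was higher in null sham over control sham, where 14.2%, 26.7% and 20.1% of all genes passed. At a mean of at least 50 CPM, which drops 6 members, 2 were higher in null PNX over null sham and 1 was lower in null sham over control sham. The shares of all genes were then 14.8% and 6.33%. At 2-fold, null PNX over null sham had 1 higher (Glb1) and 0 lower, null sham over control sham 0 lower, and null PNX over control PNX 4 higher and 1 lower. Of all genes 4.67% were then higher and 8.6% lower in null PNX over null sham. In null sham over control sham 1.9% were lower. In null PNX over control PNX 8.78% were higher and 10.1% lower. Without Cldn4-positive cells, null PNX had 0 lower over null sham and 2 lower over control PNX, and 5 of the 7 higher over null sham were kept. Of all genes 16.5% and 18.4% were lower in the same order, and 12.5% were higher over null sham. In null sham over control sham, 1 was lower without cells holding a macrophage-marker UMI, and 1 was higher and 1 lower at 2000 UMIs per cell. Of all genes 6.97% were lower without those cells, and 9.61% were higher and 7.72% lower at 2000 UMIs per cell. With a mean over cells, null PNX over null sham had 1 lower, beside 19.6% of all genes. Leaving out each gene's highest cell, an alternative added after the data had been seen, changed none of the 8 counts. In Cldn4-positive over Cldn4-negative cells of null PNX 4 members were lower at 2000 UMIs per cell, and 0 with at least 2% Sftpc in both classes, which was also added after the data had been seen. The shares of all genes that were lower were 10.8% and 3.26%.

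No paired analysis was possible because each group is 1 library. For the same reason genotype, PNX, depth and library preparation cannot be told apart. Doublets and free RNA were not removed. Members under a mean of 10 CPM, such as Tfeb, were left uncalled by that minimum.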
